A study of Mus musculus with 16 samples.

Results

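The 35 genes described here are transcription factors that mark or pattern regions of the hypothalamus and its neighbouring forebrain, out of 28683 genes counted in single cells of the mouse hypothalamus-preoptic area (hypothalamus-POA). They were taken by gene symbol from a list drawn up with earlier results of these data known, and all 35 were found in the files. For description they were grouped by region or lineage, though some, such as *Fezf2*, are also known from other parts of the forebrain. In this grouping 12 are tuberal or infundibular factors (*Nkx2-1*, *Nkx2-2*, *Nr5a1*, *Fezf1*, *Six3*, *Six6*, *Rax*, *Tbx3*, *Hmx2*, *Hmx3*, *Lhx2*, *Isl1*), 9 are paraventricular, mammillary or lateral factors (*Otp*, *Sim1*, *Foxb1*, *Barhl1*, *Barhl2*, *Lhx1*, *Lhx9*, *Fezf2*, *Onecut2*), 8 are subpallial and GABAergic factors (*Dlx1*, *Dlx2*, *Dlx5*, *Dlx6*, *Lhx6*, *Lhx8*, *Sp8*, *Sp9*), and 6 are broad forebrain factors (*Meis1*, *Meis2*, *Foxp1*, *Foxp2*, *Nr2f1*, *Nr2f2*). The cells came from 16 female mice of a mixed CD-1;129P2 background, 8 to 10 weeks old at the start, with 1 Drop-seq library per mouse. Drop-seq marks the 3' end of each captured transcript with 1 barcode for the cell and another, the unique molecular identifier (UMI), for the molecule, so that UMIs count transcripts and not PCR copies. There were 8 wild-type mice, which were Cre-negative littermates, of which 3 received oil and 5 received tamoxifen, and 8 *Esr1* cKO mice, of which 4 received oil and 4 received tamoxifen.

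*Esr1* cKO mice carried floxed alleles of the estrogen receptor gene *Esr1* and a BAC transgene that drives Cre from *Nkx2-1*, itself a gene of the list, so recombination was directed to cells with a history of *Nkx2-1* and not to every cell that uses *Esr1*. Tamoxifen, a selective estrogen receptor modulator, was injected under the skin at 0.1 mg/kg per day for 28 days, oil was the vehicle, and tissue was taken 2 hours after the last injection. The mice were dissected on 4 days, 4 mice a day, and the labels do not say which mouse belonged to which day.

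In the embryo the hypothalamus is divided by transcription factors that are switched on in bands and patches of its neuroepithelium, and many neurons, tanycytes and glia keep using some of them in the adult. *Nkx2-1* and *Rax* specify the basal hypothalamus, *Otp* and *Sim1* are needed for the neuroendocrine neurons of the paraventricular and supraoptic nuclei, *Foxb1* marks the mammillary region, *Six3* and *Six6* act in the anterior midline that includes the suprachiasmatic nucleus, and *Dlx* genes drive GABAergic fates. Several members also work outside neurons, such as *Nkx2-2* in the oligodendrocyte lineage, *Rax* and *Lhx2* in tanycytes, and *Nr2f2* in vessels.

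Totals ranged from 2634253 to 8038158 UMIs per library, and 1746 to 5568 cells per library were kept, with a median of 563 to 819 UMIs per cell. Cells were clustered with the 35 genes left out of the variable genes, so the members themselves did not define the clusters they are described in. Genes that overlap a member on the opposite strand were not left out, so clusters led by such genes are not fully independent of the members. Of the 55675 kept cells, 2192 were set apart because the markers gave their cluster no clear name, or different names at the coarse and fine resolution. The rest fell into 13 populations named from marker genes, each name standing for a cluster that is astrocyte-like, tanycyte-like and so on. From 4 to 9 markers of each name were at least 2-fold higher in its cells. A wild-type mouse given oil (replicate 3) and an *Esr1* cKO mouse given tamoxifen (replicate 3) had libraries that stood apart from the rest, with values of 136 and 133 on their first principal component, against -45.9 to -4.73 for the other 14. Their deposited files also differed, since the fewest genes of any listed barcode were 100 in both and 20 in each of the other 14. Whether a difference in processing before deposit accounts for their position was not tested. The 4 libraries numbered last (wild-type tamoxifen replicates 4 and 5, *Esr1* cKO oil replicate 4 and *Esr1* cKO tamoxifen replicate 4) shared 303 to 359 cell barcodes in each pair, 8.11% to 10.8% of the smaller library. The tests of members by population, neuron class, genotype and tamoxifen were repeated without the libraries that stood apart and without the shared barcodes. Among the calls followed gene by gene, each that this moved past the threshold is named beside it. By population, only members higher at a mean of 50 counts per 1000000 UMIs or more were followed in this way.

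In neurons, *Esr1* was at 86.5, 49.6 and 44.1 counts per 1000000 UMIs (CPM) in the wild-type mice given oil. The wild-type mice given tamoxifen had 74.4, 63.8, 57.3, 61.0 and 74.4 CPM. *Esr1* cKO mice had 49.8, 59.1, 44.2 and 41.5 CPM under oil, and 49.6, 71.2, 17.1 and 74.0 CPM under tamoxifen. The groups overlapped, and the mean difference was -0.32 on the log2 scale (SE 0.23) with an adjusted p of 1 in edgeR's quasi-likelihood test, so the neuronal level of the targeted gene did not separate the genotypes at this depth. The paper also could not detect a significant fall of *Esr1* transcripts in *Esr1* cKO mice. It reports that staining for the receptor protein was lost in several areas, among them the medial preoptic area and the arcuate nucleus. A count at the 3' end need not fall when exons elsewhere in the gene are removed, and this was not tested here. In the 474 neurons with a UMI of *Nkx2-1*, 244 from *Esr1* cKO and 230 from wild-type mice, *Esr1* was at 80.9 CPM ± 35.9 (SD, n = 8) in *Esr1* cKO and 94.6 CPM ± 65.4 (SD, n = 8) in wild-type mice (two-sided exact permutation test, p = 0.623).

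The promoters of 4 members are shown because their genes form neighbouring or related pairs whose levels are described together below, *Dlx1* with *Dlx2* and *Six3* with *Six6*. Each is the 250 bases before a transcript start in RefSeq (build GRCm38.p6, 5′ to 3′ on the gene's strand). They lie at chr2:71529195-71529444 on the plus strand for *Dlx1*, chr2:71546755-71547004 on the minus strand for *Dlx2*, chr17:85620584-85620833 on the plus strand for *Six3* and chr12:72939632-72939881 on the plus strand for *Six6*. *Dlx1* and *Dlx2* are read towards each other, and the ends of the genes lie 9427 bases apart. Capitals mark TGACAG, the core letters bound by TALE homeodomain proteins such as Meis.
Dlx1: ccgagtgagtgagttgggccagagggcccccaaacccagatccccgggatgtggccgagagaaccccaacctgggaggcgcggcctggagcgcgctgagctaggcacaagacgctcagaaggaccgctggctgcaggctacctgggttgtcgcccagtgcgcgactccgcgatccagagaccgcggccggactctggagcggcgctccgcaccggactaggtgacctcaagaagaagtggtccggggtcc
Dlx2: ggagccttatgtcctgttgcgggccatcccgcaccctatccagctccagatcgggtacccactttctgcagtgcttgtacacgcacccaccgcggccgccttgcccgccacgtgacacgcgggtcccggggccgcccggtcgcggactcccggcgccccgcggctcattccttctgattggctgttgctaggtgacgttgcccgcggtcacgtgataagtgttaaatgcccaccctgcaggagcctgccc
Six3: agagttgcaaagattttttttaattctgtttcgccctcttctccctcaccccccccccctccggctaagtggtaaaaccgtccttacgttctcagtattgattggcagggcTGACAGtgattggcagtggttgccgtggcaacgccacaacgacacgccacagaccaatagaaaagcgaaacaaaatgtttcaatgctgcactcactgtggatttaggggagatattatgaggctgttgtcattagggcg
Six6: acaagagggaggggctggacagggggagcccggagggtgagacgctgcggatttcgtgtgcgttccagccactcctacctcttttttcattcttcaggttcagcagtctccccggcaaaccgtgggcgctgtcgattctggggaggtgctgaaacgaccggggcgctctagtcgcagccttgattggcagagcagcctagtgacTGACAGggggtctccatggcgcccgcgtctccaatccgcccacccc
The motif TGACAG stood in the 250 bases of *Six3* and of *Six6*, from base 139 and base 46 before the start, and was not in those of *Dlx1* or *Dlx2*. On both strands, it was found in 6 of the 37 promoters of the 27 members that RefSeq lists (16.2%) and in 15.9% of all 32851 promoters. The homeodomain letters TAATTA stood in 2 of the 37 (5.41%) and in 4.84% of all promoters, and the NK2 letters CAAGTG in 2 of the 37 (5.41%) and in 11.6% of all promoters. A match is a description of the letters and not of a bound site. The median GC content was 59.6% over the members' promoters and 52.4% over all.

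Levels were compared first between each population and all other kept cells of the same mice. The clusters were formed without the members, and the test was edgeR's quasi-likelihood test on UMIs summed per library, with the library as a block and Benjamini-Hochberg adjustment over all genes tested. Most of the list was higher in neurons, where 22 of the 32 members tested passed the test as higher and 6 as lower. The median log2 fold change of the members there was 1.85, against -0.01 over all genes tested, of which 39.1% were higher in neurons. The comparison list of 55 other regional transcription factors had 22 higher and 22 lower of 51 tested, with a median of 0.02. In every other population more members were lower than higher. Of the members tested, 7 of 24 were higher in tanycytes (13.5% of all genes were), 5 of 27 in astrocytes (29.7%), 4 of 27 in ciliated ependymal cells (27.5%), 4 of 23 in fibroblasts (11.2%) and 3 of 24 in mural cells (12.6%). The remaining populations had 3 of 26 members higher in oligodendrocytes (29.3%), 2 of 27 in endothelial cells (26.2%), 2 of 22 in the pars tuberalis (4.08%), 1 of 22 in committed oligodendrocyte precursors (7.38%), 1 of 23 in oligodendrocyte precursors (24.6%), 0 of 23 in microglia (24.2%) and 0 of 24 in macrophages (11.1%). In microglia 22 of the 23 members tested were lower, and in macrophages 22 of 24. Lower calls were common for any gene. Over all genes and populations, 76816 of 193215 tests were lower and 38867 higher, and the lower share of single populations is not given. The median log2 fold change of the members was -2.76 in microglia and -3.04 in macrophages, against -0.37 and -0.96 over all genes tested. *Nr5a1*, *Barhl1* and *Sp8*, with 73, 56 and 38 UMIs in all, were too low to be tested in any population.

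**Figure D1:**
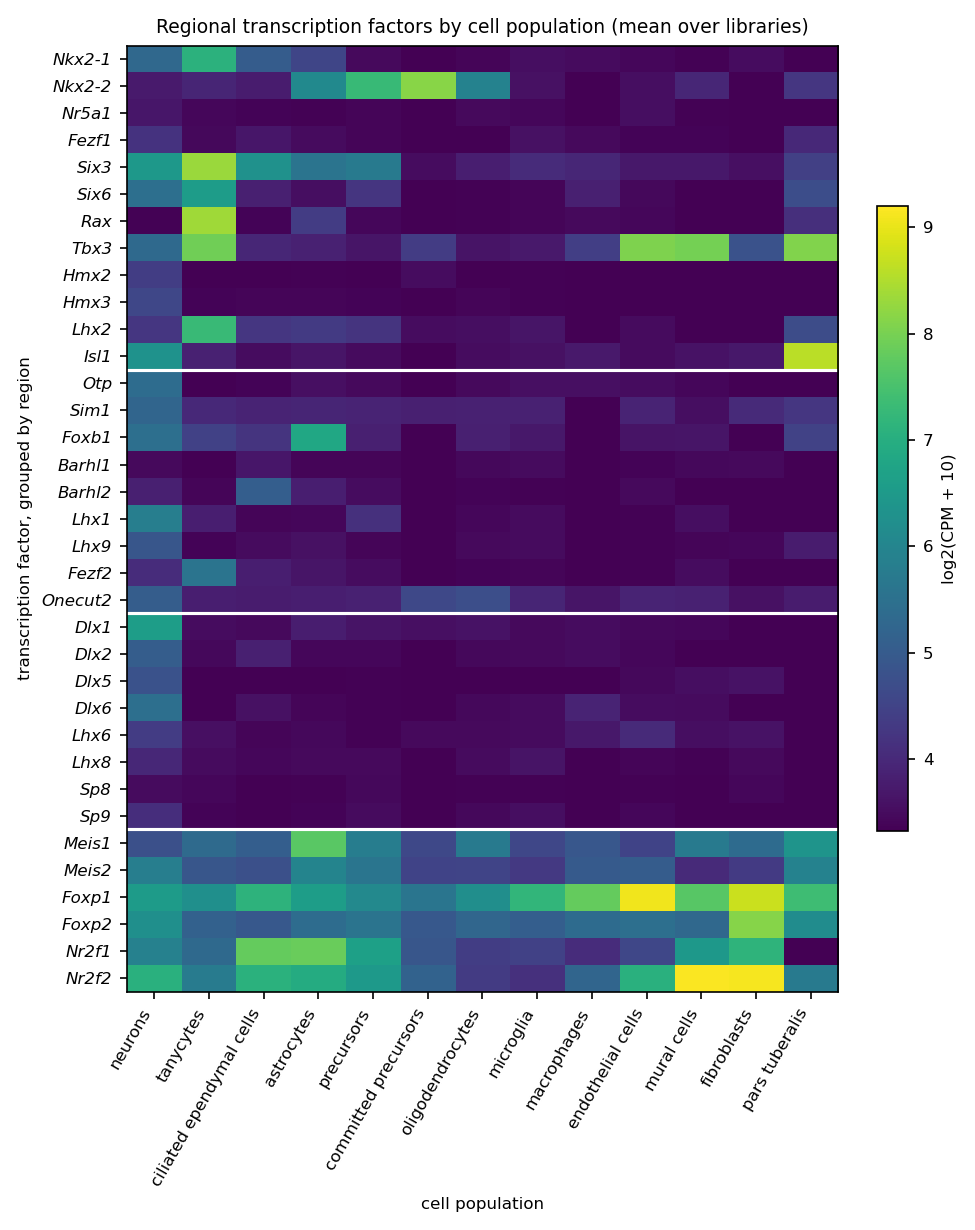
Level of each of the 35 transcription factors (rows, grouped by region) in the 13 populations (columns), as the mean over libraries of CPM, coloured as log2(CPM + 10). *Rax* is bright in tanycytes alone (318 CPM), *Nkx2-2* in the committed precursors (274 CPM), and *Nr2f2* in mural cells (569 CPM) and fibroblasts (547 CPM).

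Tanycytes, the radial glia-like cells that line the floor of the third ventricle, had the most members called higher outside neurons, 7, of which *Rax*, *Lhx2*, *Nkx2-1* and *Six3* are known from the basal or anterior hypothalamus of the embryo. *Rax*, a homeobox gene required for tanycytes to form, ranged from 184 to 494 CPM with a median of 294 CPM over the 16 libraries, and was at most 4.41 CPM in the other cells of any library (log2 fold change 7.24, SE 0.17, adjusted p = 9.38e-215). *Lhx2*, a LIM-homeobox gene that maintains tanycyte identity, ranged from 36.5 to 240 CPM with a median of 158 CPM, against at most 11.5 CPM in the other cells (log2 fold change 4.56, SE 0.18). *Nkx2-1*, the factor whose promoter directs Cre in the mutant mice, ranged from 45.5 to 235 CPM with a median of 115 CPM, against at most 23.0 CPM in the other cells (log2 fold change 2.97, SE 0.18). For these 3 genes each tanycyte value stood above each value of the other cells. *Six3*, at 73.0 to 471 CPM with a median of 302 CPM, was higher by 2.86 on the log2 scale (SE 0.12) and did not overlap either, since the other cells were at most 51.5 CPM. Its relative *Six6* was at 0 CPM in the lowest library, 84.0 CPM at the median and 167 CPM in the highest, against at most 22.4 CPM in the other cells, so this gene was higher in 15 of 16 libraries (log2 fold change 2.73, SE 0.19). *Tbx3*, a T-box gene needed for arcuate nucleus identity, ranged from 93.1 to 395 CPM with a median of 237 CPM, above the 74.8 CPM of the highest library of other cells (log2 fold change 1.95, SE 0.12). *Fezf2*, a zinc finger gene of forebrain patterning, completed the 7 with a mean of 38.0 CPM ± 24.7 (SD, n = 16) against 3.07 CPM in the other cells (log2 fold change 3.56, SE 0.28).

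A UMI of *Rax* was found in 25.8% of the 1280 tanycytes (exact 95% interval 23.4% to 28.3%, counting error only), at a median depth of 910 UMIs, and in 0.0434% of microglia, which should lack it, at a median depth of 618 UMIs. Thinned to 500 UMIs per cell the share of tanycytes was 14.3%. The remaining 17 of the 24 members tested were lower in tanycytes than in the other cells, among them all 4 of *Meis1*, *Meis2*, *Foxp1* and *Foxp2* and both *Nr2f1* and *Nr2f2*. The share of all genes lower in tanycytes is not given, and lower calls were common over all populations (76816 of 193215 tests). The median log2 fold change in tanycytes was -1.35 over the members and -0.18 over all genes tested. Ciliated ependymal cells, which line the same ventricle, had other calls. There *Rax*, *Six6*, *Tbx3* and *Fezf2* passed as lower than in all other cells and *Lhx2* did not pass the test, and the 2 ependymal populations were not tested against each other. Those other cells included the tanycytes, which held 553 of the 655 *Rax* UMIs. The lower call of *Rax* is therefore not independent of its level in tanycytes.

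**Figure D2:**
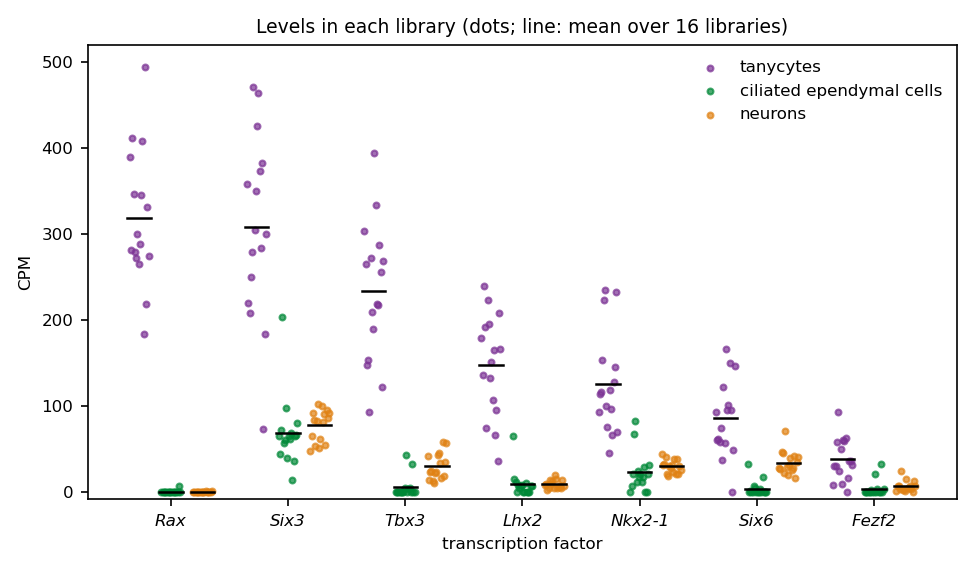
Levels (CPM, linear axis) of the 7 members called higher in tanycytes, in tanycytes, ciliated ependymal cells and neurons, with 1 dot per library and a line at the mean over 16 libraries. *Rax* lies between 184 and 494 CPM in tanycytes and near 0 in the other populations shown.

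In ciliated ependymal cells the member with the clearest level was *Nr2f1*, an orphan nuclear receptor of forebrain patterning. It ranged from 32.6 to 322 CPM with a median of 225 CPM, against at most 85.5 CPM in the other cells, and was higher in 15 of 16 libraries (log2 fold change 1.76, SE 0.11, adjusted p = 5.30e-23). *Six3* ranged from 14.7 to 204 CPM with a median of 65.0 CPM and overlapped with the other cells (log2 fold change 0.63, SE 0.14), and this call was lost with the Wald test of DESeq2 (adjusted p = 0.0731). *Barhl2* and *Nkx2-1*, both at means under 25 CPM, also passed as higher, by 3.01 (SE 0.32) and 0.69 (SE 0.24) on the log2 scale. With the DESeq2 test 2 members were higher in these cells in place of 4.

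Astrocytes, the most numerous population with 13421 cells, shared *Nr2f1* with the ciliated ependymal cells and added *Meis1* and *Foxb1*. *Meis1*, a TALE homeobox gene, ranged from 131 to 315 CPM with a median of 177 CPM, against at most 35.9 CPM in the other cells (log2 fold change 3.03, SE 0.09, adjusted p = 1.17e-32). *Nr2f1* ranged from 153 to 328 CPM with a median of 213 CPM, against at most 84.2 CPM (log2 fold change 2.26, SE 0.07). *Foxb1*, known as a forkhead factor of the mammillary region, ranged from 75.8 to 151 CPM with a median of 101 CPM, against at most 72.3 CPM (log2 fold change 3.14, SE 0.20). None of the 3 overlapped with the other cells in any library. *Nkx2-2* ranged from 35.9 to 96.4 CPM in astrocytes with a median of 54.5 CPM (log2 fold change 1.44, SE 0.10), and *Meis2* from 19.8 to 115 CPM with a median of 50.5 CPM (log2 fold change 1.11, SE 0.12). For *Nkx2-2* the groups came close to touching, since the other cells reached 35.1 CPM, and for *Meis2* they overlapped.

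*Foxb1* was read in 5.58% of astrocytes (exact 95% interval 5.20% to 5.98%) at a median depth of 481 UMIs, in 2.86% of neurons at a median depth of 1489.5 UMIs and in 0.239% of microglia at 618 UMIs. The gene (chromosome 9, 69757710 to 69760940, minus strand, GRCm38, GENCODE vM21) is overlapped on the opposite strand by *B230323A14Rik* (69758740 to 69830845), which was itself at 275 CPM ± 80.7 (SD, n = 16) in astrocytes and 28.8 CPM ± 24.5 (SD, n = 16) in neurons. Of the 749 astrocytes with a *Foxb1* UMI, 122 (16.3%) also had one of *B230323A14Rik*, and of the 261 such neurons 143 (54.8%) did. Among all astrocytes the share with a *B230323A14Rik* UMI was 13.2%, close to that of the astrocytes with *Foxb1*, and among all neurons it was 3.35%. Whether the counting used strand is not given in the sources used here, and without strand reads within the overlap cannot be told apart. The annotated 3' ends, 69757710 for *Foxb1* and 69830845 for *B230323A14Rik*, lie outside the overlap. How many reads fell within it was not counted. The same limit holds, within the overlap, for the other members that GENCODE vM21 places opposite another gene. These are *Nkx2-1*, *Nkx2-2*, *Nr5a1*, *Six3*, *Six6*, *Rax*, *Tbx3*, *Hmx2*, *Hmx3*, *Lhx2*, *Dlx1*, *Dlx6*, *Sp9*, *Meis1*, *Nr2f1* and *Nr2f2*. It weighs most where *Dlx1*, *Dlx6*, *Hmx2* and *Hmx3* lie wholly within a partner, and where *Sp9* and its partner overlap at their 3' ends. Of these partners, *A830082K12Rik* opposite *Nr2f1* was itself at 93.5 CPM ± 21.4 (SD, n = 16) in astrocytes.

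*Nkx2-2*, a homeobox gene needed for oligodendrocyte differentiation, was higher in each population of the oligodendrocyte lineage, though not there alone. Its mean was 58.9 CPM in astrocytes and 51.3 CPM in oligodendrocytes. In committed precursors it ranged from 149 to 425 CPM with a median of 275 CPM, against at most 37.1 CPM in the other cells (log2 fold change 2.95, SE 0.17, adjusted p = 1.00e-35). In precursors it ranged from 83.4 to 215 CPM with a median of 143 CPM, against at most 31.8 CPM (log2 fold change 2.62, SE 0.10). In oligodendrocytes it ranged from 29.2 to 69.4 CPM with a median of 50.6 CPM and overlapped with the other cells, yet was higher in all 16 libraries when each was compared with its own other cells (log2 fold change 1.44, SE 0.11). It was the single member called higher in either precursor population, while 20 of 22 members tested were lower in committed precursors and 17 of 23 in precursors. The share of all genes lower in these populations is not given, and lower calls were common over all populations (76816 of 193215 tests). The members' median log2 fold change was -3.88 in committed precursors and -1.56 in precursors, against -0.62 and -0.06 over all genes tested. Neurons were low in *Nkx2-2*, with a mean of 3.38 CPM against 41.2 CPM in the other cells. *Onecut2* and *Meis1* also passed as higher in oligodendrocytes, by 0.97 and 0.26 on the log2 scale, but the mean of *Meis1* was 43.2 CPM there and 49.6 CPM in the other cells, with 4 of 16 libraries higher, so plain CPM and the TMM-scaled fit gave opposite signs.

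Vessel-associated cells held their own subset. In endothelial cells *Foxp1*, a forkhead gene, ranged from 371 to 675 CPM with a median of 545 CPM, against at most 142 CPM in the other cells (log2 fold change 2.27, SE 0.06, adjusted p = 1.90e-40). *Tbx3* ranged from 169 to 501 CPM there with a median of 242 CPM, against at most 70.3 CPM (log2 fold change 2.603, SE 0.10). In mural cells *Nr2f2*, also called COUP-TFII, ranged from 292 to 980 CPM with a median of 554 CPM, against at most 134 CPM (log2 fold change 2.26, SE 0.11). These levels did not overlap with those of the other cells. *Tbx3* was also higher in mural cells, at 92.9 to 653 CPM with a median of 221 CPM (log2 fold change 1.80, SE 0.14). *Foxp1* in mural cells ranged from 73.1 to 273 CPM with a median of 189 CPM, overlapped with the other cells and was higher by 0.33 (SE 0.13), and this call was lost under 8 alternatives, among them the DESeq2 test (adjusted p = 0.398). Leaving out *Esr1* cKO tamoxifen replicate 1, *Esr1* cKO oil replicate 3, wild-type oil replicate 2 or wild-type tamoxifen replicate 5 also ended it (adjusted p from 0.0550 to 0.0743).

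Fibroblasts were also higher in *Nr2f2*, with 342 to 864 CPM and a median of 553 CPM, against at most 143 CPM (log2 fold change 2.14, SE 0.12). *Foxp2*, the forkhead gene best known from vocal learning, ranged from 69.9 to 531 CPM in fibroblasts with a median of 257 CPM (log2 fold change 2.54, SE 0.15, adjusted p = 1.96e-44). *Foxp1* ranged from 112 to 790 CPM with a median of 375 CPM (log2 fold change 1.36, SE 0.13), and *Nr2f1* from 57.6 to 210 CPM with a median of 147 CPM (log2 fold change 0.70, SE 0.17). The fibroblasts fell into a cluster of 734 cells and a cluster of 237 cells that differed in these genes. *Foxp2* was at 118 CPM in the larger and 583 CPM in the smaller, *Foxp1* at 237 CPM and 717 CPM, and *Nr2f2* at 773 CPM and 215 CPM, pooled over cells and without a test, whereas *Nr2f1* was at 137 CPM and 139 CPM. The lowest libraries of *Foxp2*, *Foxp1* and *Nr2f1* overlapped with the other cells, and *Nr2f1* lost its call with a mitochondrial share under 5% (adjusted p = 0.136).

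The pars tuberalis, the pituitary tissue attached to the median eminence, gave 196 cells and at least 10 of them in only 8 libraries. *Isl1*, a LIM-homeobox gene of pituitary and neuronal differentiation, had a median of 361 CPM there with a range from 207 to 575 CPM, against at most 37.8 CPM in the other cells (log2 fold change 3.40, SE 0.29, adjusted p = 4.24e-29). *Tbx3* ranged from 99.1 to 444 CPM with a median of 234 CPM, against at most 64.9 CPM (log2 fold change 1.48, SE 0.32). Both were higher in 8 of 8 libraries.

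Neurons, 9134 cells, were higher in the *Dlx* genes, *Isl1* and most of the neuronal-nucleus factors. *Dlx1*, a homeobox gene of GABAergic neurons, ranged from 37.6 to 141 CPM with a median of 83.1 CPM, against at most 3.91 CPM in the other cells (log2 fold change 5.39, SE 0.13, adjusted p = 1.06e-24). *Isl1* ranged from 34.3 to 98.3 CPM with a median of 68.0 CPM, against at most 6.62 CPM (log2 fold change 4.20, SE 0.13). Both stood clear of the other cells in every library. *Six3* ranged from 47.3 to 103 CPM with a median of 83.8 CPM (log2 fold change 1.28, SE 0.12) and *Foxp2* from 40.6 to 102 CPM with a median of 60.02 CPM (log2 fold change 0.85, SE 0.16), and the ranges of both overlapped with those of the other cells. The other 18 members called higher had neuronal means of 5.75 to 47.2 CPM. They were *Dlx2*, *Dlx5*, *Dlx6*, *Lhx1*, *Lhx6*, *Lhx8*, *Lhx9*, *Hmx2*, *Hmx3*, *Otp*, *Sim1*, *Six6*, *Nkx2-1*, *Fezf1*, *Fezf2*, *Onecut2*, *Sp9* and *Meis2*, with log2 fold changes from 0.85 for *Meis2* to 5.80 for *Hmx2*. *Nkx2-2*, *Rax*, *Tbx3*, *Meis1*, *Foxp1* and *Nr2f1* were lower in neurons, and *Lhx2*, *Foxb1*, *Barhl2* and *Nr2f2* did not pass the test.

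At least 1 UMI of a member was read in 6098 neurons (66.8%), and UMIs of 2 or more different members in 3699 (40.5%), at a median depth of 1489.5 UMIs per neuron. The 2 libraries that stood apart lay outside the range of the other 14 for *Foxp1* in neurons (43.1 and 62.8 CPM against 70.1 to 138 CPM), *Meis1* in neurons (8.77 and 9.23 CPM against 10.4 to 26.1 CPM) and *Otp* in neurons (48.0 and 55.4 CPM against 9.49 to 44.9 CPM). In astrocytes they lay outside it for *Foxp2* (9.10 and 11.3 CPM against 21.9 to 86.7 CPM) and *Meis2* (19.8 and 20.01 CPM against 25.6 to 115 CPM). Apart from *Otp*, these are genes with long introns (128637 to 583633 bases in all). For *Meis1* and *Foxp1* in astrocytes and *Meis2* and *Foxp2* in neurons, the 2 libraries did not both lie outside the range of the other 14. The part of intronic reads in the difference was not tested. The calls by population of members higher at a mean of 50 CPM or more all held without these libraries. The other calls by population were not followed gene by gene.

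Neurons were then sorted by transmitter genes that are not members of the list. The inhibitory class, 3921 neurons, had a UMI of *Slc32a1*, *Gad1* or *Gad2* and none of *Slc17a6* or *Slc17a7*, and the excitatory class, 1699 neurons, had the reverse. A further 298 neurons had both and 3216 had neither, and the median depth was 1937 UMIs in the inhibitory and 2346 UMIs in the excitatory class. The fewest neurons in a library were 87 in the inhibitory and 17 in the excitatory class, so counts per library can be very small on the excitatory side. Of the 25 members tested, 12 were higher in the inhibitory and 9 in the excitatory neurons, whereas 4.66% and 5.82% of all genes tested were. The median log2 difference over the members was 0.14, against 0.01 over all genes, since the list held genes of both directions. Of the 55 other regional factors, 36 were tested, 4 were higher and 10 lower in inhibitory neurons.

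The 4 *Dlx* genes led the inhibitory side. *Dlx1* had 88.3 to 254 CPM in inhibitory neurons (mean 158 CPM ± 40.2, SD, n = 16) and 1 UMI in all excitatory neurons together, against 1478 UMIs in the inhibitory ones, a ratio of levels of 748 with an exact 95% counting interval from 134 to 29550 (fitted log2 difference 8.27, SE 0.24, adjusted p = 2.42e-28). *Dlx2* was at 40.8 CPM ± 10.4 against 0.921 CPM ± 2.01 (SD, n = 16 each), *Dlx6* at 61.5 CPM ± 8.88 against 1.16 CPM ± 1.94, and *Dlx5* at 32.3 CPM ± 6.59 against 0.851 CPM ± 1.68. All 4 were higher in 16 of 16 libraries without overlap, and with 11 to 15 libraries at 0 on the excitatory side the fitted differences (4.57 to 8.27) depend on the prior count and are not bounds. *Lhx6*, a LIM-homeobox gene of subpallial interneurons, was at 19.04 CPM ± 8.40 against 1.24 CPM ± 2.05 (log2 difference 3.41, SE 0.38).

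*Six3* and *Six6* were the next on the inhibitory side. *Six3* had 84.7 to 157 CPM in inhibitory and 0 to 30.7 CPM in excitatory neurons (log2 difference 3.04, SE 0.16, adjusted p = 1.23e-19). *Six6* had 10.8 to 102 CPM against 0 to 32.0 CPM (log2 difference 3.27, SE 0.29). The *Six3* ranges did not overlap and the *Six6* ranges did, though *Six6* was higher in inhibitory neurons in 16 of 16 libraries. *Isl1* was at 97.9 CPM ± 18.9 against 33.6 CPM ± 23.1 (log2 difference 1.47, SE 0.16) and *Meis2* at 67.5 CPM ± 44.9 against 15.5 CPM ± 11.3 (log2 difference 2.13, SE 0.22), each higher in all 16 libraries. The homeobox neighbours *Hmx2* and *Hmx3* were higher by 1.77 (SE 0.35) and 1.37 (SE 0.27), in 13 and 14 of 16 libraries. *Nr2f2* was higher by 0.44 (SE 0.11), a call that was lost with a mitochondrial share under 5% (adjusted p = 0.0577).

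On the excitatory side, *Foxb1* had 0 to 319 CPM in excitatory neurons (mean 94.3 CPM ± 79.5) and 2.80 CPM ± 4.29 in inhibitory neurons (SD, n = 16 each; log2 difference -4.82, SE 0.25, adjusted p = 2.59e-19). *Fezf1*, a zinc finger gene of the ventromedial nucleus, was at 21.98 CPM ± 16.4 in excitatory and 0.630 CPM ± 1.27 in inhibitory neurons (log2 difference -4.62, SE 0.39). *Lhx9*, a LIM-homeobox gene, was at 41.8 CPM ± 32.8 against 1.61 CPM ± 2.005 (log2 difference -4.43, SE 0.29). Their mean levels in excitatory neurons came with an SD nearly as large, and each was at 0 in 1 or 2 excitatory libraries. The part of counting error from libraries with few excitatory neurons in this spread was not tested. Of the 444 *Lhx9* UMIs in all kept cells, 95 came from *Esr1* cKO tamoxifen replicate 3 and 90 from wild-type tamoxifen replicate 5. *Sim1*, the bHLH-PAS factor of paraventricular neurons, was at 49.4 CPM ± 22.4 in excitatory and 8.67 CPM ± 4.70 in inhibitory neurons (log2 difference -2.70, SE 0.21). Its partner *Otp* differed less (40.2 CPM ± 23.9 against 21.9 CPM ± 15.9, log2 difference -0.96, SE 0.23) and lost its call when 2 UMIs of a sorting gene were required (adjusted p = 0.240). *Nkx2-1* was lower in inhibitory neurons in all 16 libraries, at 20.5 CPM ± 8.31 against 47.7 CPM ± 15.99 (log2 difference -1.17, SE 0.17). *Onecut2* (-1.20, SE 0.26), *Foxp2* (-0.73, SE 0.15) and *Foxp1* (-0.34, SE 0.11) were also higher in excitatory neurons, and *Foxp1* lost its call under 14 alternatives, among them the removal of the libraries that stood apart (adjusted p = 0.0580) and of shared barcodes (adjusted p = 0.0626). The call of *Foxp1* was also lost without any 1 of the 5 wild-type tamoxifen libraries, wild-type oil replicate 1 or 3, *Esr1* cKO oil replicate 4 or *Esr1* cKO tamoxifen replicate 1 (adjusted p from 0.0501 to 0.125). *Nr2f1*, *Lhx1*, *Meis1* and *Tbx3* did not pass the test, and 10 members were too low to be tested.

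**Figure D3:**
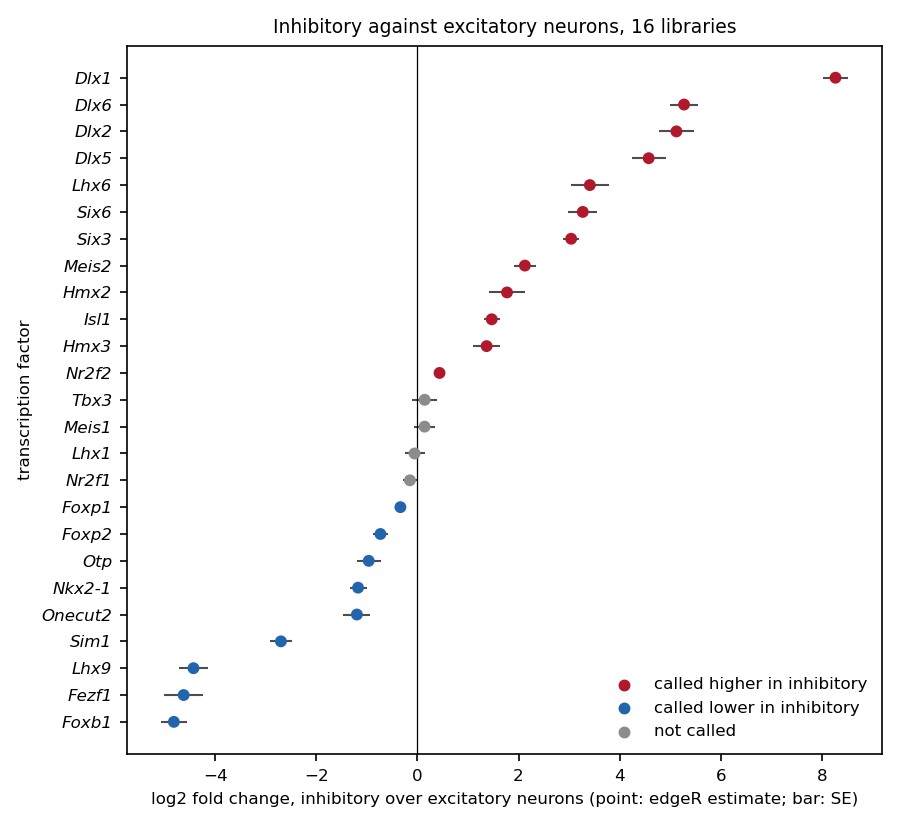
Log2 fold change of inhibitory over excitatory neurons for the 25 members tested, with a point at the edgeR estimate and a bar of 1 SE to each side, ordered by size and coloured by call. *Dlx1* stands at 8.27 and *Foxb1* at -4.82, and the 4 members in grey did not pass the test.

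Neurons were also divided into 21 clusters, again without the members among the variable genes, each called by its leading gene outside the list. Levels here are a description without a test, pooled over the neurons of a cluster, and for 20 of the clusters the member is named that had the largest ratio to the other neurons among members at 100 CPM or more. The clearest was *Foxb1* in the 234 neurons of the *B230323A14Rik* cluster, at 653 CPM against 6.93 CPM in the other neurons, a ratio of 39.2 with a pseudocount of 10 CPM. These neurons, 80.8% of them in the excitatory class, held 78.2% of all neuronal *Foxb1* UMIs, and in the 14 libraries with at least 3 such neurons *Foxb1* ran from 429 to 1106 CPM. They also carried *Lhx1* (297 CPM) and *Onecut2* (163 CPM), and the leading gene is the antisense neighbour of *Foxb1* described above. That neighbour was not left out of the variable genes, so the level of *Foxb1* here may not be independent of how the cluster was formed. The same holds for *Lhx1*, since *1500016L03Rik*, the gene with the pattern most like it, was also among the genes leading the cluster.

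In the *Vipr2* cluster, 878 neurons led by the receptor gene for vasoactive intestinal peptide that the suprachiasmatic nucleus uses, *Six6* was at 245 CPM against 18.2 CPM in the other neurons and *Six3* at 452 CPM against 48.2 CPM, and 51.8% and 42.9% of the neuronal UMIs of these genes fell there. *Lhx1* was at 161 CPM in this cluster. *Six3os1*, which overlaps *Six3* on the opposite strand, was among the genes leading the cluster and was not left out of the variable genes. In each of the 16 libraries *Six3* (293 to 598 CPM) and *Six6* (156 to 352 CPM) were above the other neurons. In the 144 neurons of the *Oxt* cluster, named by oxytocin, *Sim1* was at 238 CPM and *Otp* at 277 CPM, against 20.1 and 26.9 CPM, and both were above the other neurons in 13 of 13 libraries. *Otp* was also high in the 61 neurons of the *Agrp* cluster, at 443 CPM against 29.8 CPM, where *Tbx3* (195 CPM) and *Isl1* (204 CPM) were read as well. *Otp* therefore stood in a mainly inhibitory cluster (85.2% of *Agrp* neurons in the inhibitory class) and in one with more excitatory (36.1%) than inhibitory (4.17%) neurons.

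*Tbx3* was at 395 CPM in the 104 neurons of the *Tac2* cluster, the tachykinin of arcuate kisspeptin neurons, against 21.3 CPM in the other neurons, and above them in 12 of 13 libraries. *Dlx1* was at 195 CPM in the 1490 neurons of the *Gal* cluster, which also held 72.2% and 72.8% of the neuronal UMIs of *Hmx2* and *Hmx3*. Below 100 CPM, *Hmx3* had a larger ratio than *Dlx1* there, at 43.8 CPM against 5.17 CPM. *Meis2* was at 143 CPM in the 1066 neurons of the *Gad2* cluster, with 52.7% of its neuronal UMIs, and 61.2% of those of *Lhx6* fell there too. The *Gal* and *Gad2* clusters were mainly inhibitory (73.0% and 87.1% of neurons), and the *Tac2* cluster held more excitatory (46.2%) than inhibitory (2.88%) neurons. *Nr2f1* (200 CPM) and *Nr2f2* (419 CPM) were highest in the 276 neurons of the *Crym* cluster, and *Fezf2* (76.8 CPM) and *Lhx2* (67.8 CPM) had their highest cluster level there as well. *Lhx9* was at 168 CPM in the 218 neurons of the *Shox2* cluster, which also had *Foxp1* at 351 CPM and *Foxp2* at 316 CPM, and at 343 CPM in the 114 neurons of the *Gm5741* cluster, most of which came from 1 mouse (wild-type tamoxifen replicate 5). The *Crym*, *Shox2* and *Gm5741* clusters had at least 3 neurons in 10, 11 and 5 libraries. Among their next genes were *Nrgn* and *Neurod2*, *Tcf7l2* and *Prkcd*, and *Gpr151* and *Pou4f1*, in that order. Whether these neurons came from the hypothalamus or from neighbouring forebrain was not tested. Of their neurons 23.6%, 62.8% and 53.5% were in the excitatory class compared above.

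The smaller clusters were read from few cells. *Onecut2* was at 336 CPM in 89 neurons of a second cluster led by *B230323A14Rik* and *Cntn5*, which held 34 of its UMIs. *Barhl2* was at 127 CPM in the 38 neurons of the *Hdc* cluster, the gene for histamine synthesis, with 22 UMIs in 11 cells, and *Isl1* (266 CPM) and *Dlx6* (133 CPM) were high there. *Foxp2* was at 183 CPM in the 57 neurons of the *Slc6a3* cluster, from 5 UMIs. The remaining named members were *Foxp2* in the *Lrrtm4* (158 CPM) and *Ppp1r17* (102 CPM) clusters, *Foxp1* in the *Vgf* (101 CPM) and *Hba-a2* (128 CPM) clusters, and *Nr2f2* in the *Gm26924* (163 CPM), *Tac1* (121 CPM) and *Itih3* (147 CPM) clusters, with ratios to the other neurons from 0.943 in the *Tac1* cluster, where *Nr2f2* was below the other neurons, to 2.48. *Fezf1* was at 32.6 CPM in the *Tac1* cluster against 3.58 CPM, with 63.2% of its neuronal UMIs. The *Itih3* and *Hba-a2* clusters were led by genes of astrocytes and red blood cells, and the part of mixed droplets in their levels was not tested.

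**Figure D4:**
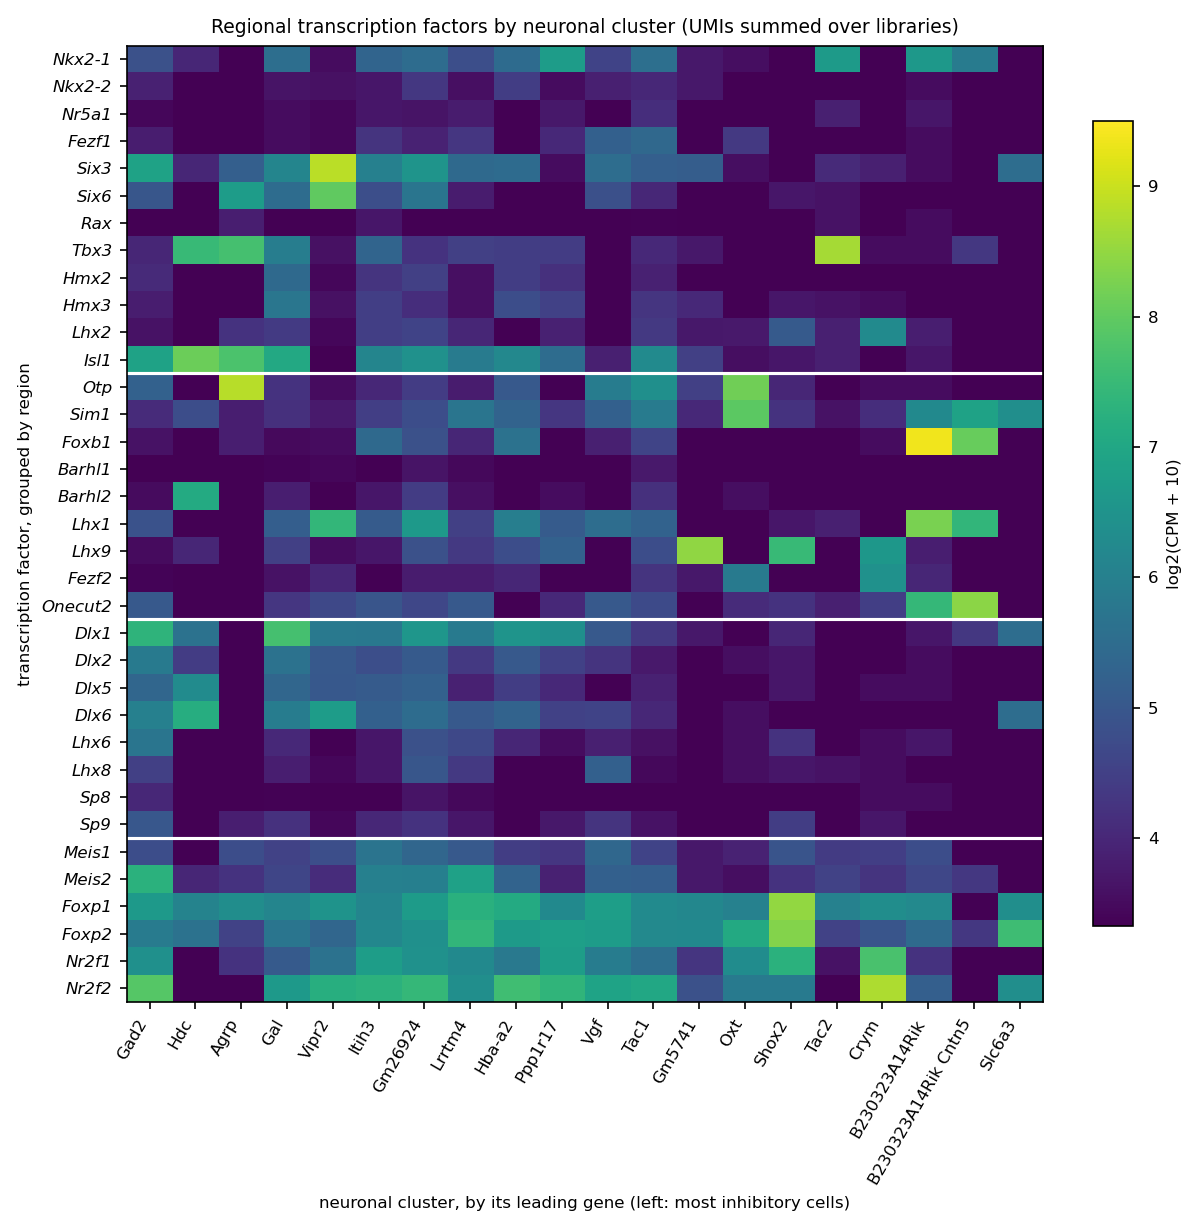
Level of each member (rows) in 20 of the 21 neuronal clusters (columns, by leading gene, with the most inhibitory clusters at the left), pooled over the neurons of a cluster and coloured as log2(CPM + 10). Single bright fields mark *Foxb1* in the *B230323A14Rik* cluster (653 CPM), *Six3* in the *Vipr2* cluster (452 CPM) and *Otp* in the *Agrp* cluster (443 CPM), whereas *Nr2f2* was at 100 CPM or more in 10 of the 21 clusters.

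How narrowly a member was used differed within the list. Counted by the fewest clusters that made up 50% of the sum of a member's cluster levels, *Foxb1* and *Barhl2* needed 1 cluster, as did the sparse *Barhl1*, whereas *Foxp1* needed 7 and *Nr2f1*, *Nr2f2*, *Foxp2* and *Meis1* needed 5. This count gives small and large clusters the same weight. By UMIs, the top cluster held 78.2% for *Foxb1* but 26.5% for *Barhl2*, whose top cluster had 38 neurons. *Hmx2* and *Hmx3* needed 3 clusters, though 72.2% and 72.8% of their neuronal UMIs fell in 1. *Foxp2* was the single member read in all 21 clusters. Over the 21 clusters, which differ in depth and share libraries, paralogues and neighbours had like patterns to different degrees. Pearson's r of log2(CPM + 10) was 0.92 for *Hmx2* and *Hmx3*, 0.90 for *Dlx1* and *Dlx2*, 0.86 for *Dlx5* and *Dlx6*, 0.79 for *Nr2f1* and *Nr2f2*, 0.77 for *Six3* and *Six6*, 0.67 for *Lhx6* and *Lhx8*, 0.65 for *Foxp1* and *Foxp2*, 0.65 for *Sp8* and *Sp9*, 0.62 for *Meis1* and *Meis2*, and 0.50 for *Lhx2* and *Lhx9*. It was 0.12 for *Nkx2-1* and *Nkx2-2*, 0.05 for *Fezf1* and *Fezf2*, and 0.00 for *Barhl1* and *Barhl2*, of which *Barhl1* had 18 UMIs in neurons. In single neurons *Dlx1* and *Dlx2* were read together in 155 cells, 15.6% of those with *Dlx1* and 42.8% of those with *Dlx2*. *Six3* and *Six6* were read together in 190 cells, 20.3% of those with *Six3* and 42.8% of those with *Six6*.

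For the 24 members with at least 200 neuronal UMIs, the genes with the most similar pattern over the 21 clusters were sought among 10547 genes. For 8 of the 24 the most similar gene was placed within 100000 bases of the member, and for 10 such a gene was among the 3 most similar. Some similar genes had no position in the annotation used and were not counted as near, so more may be near. They were *RP24-351J24.2* for *Nkx2-1*, *1500016L03Rik* and *RP24-113D21.1* for *Lhx1*, and *2610018G03Rik* for *Tbx3*. The same share was not computed for other genes. *Foxb1* was most like *B230323A14Rik* (r = 0.90), which overlaps it. *Six3* was most like its antisense neighbour *Six3os1* (r = 0.84), which was at 179 CPM ± 70.2 (SD, n = 16) in tanycytes, and each gene of the *Hmx2* and *Hmx3*, *Dlx1* and *Dlx2*, and *Dlx5* and *Dlx6* pairs was most like the other. *Lhx6* and *Meis2*, on different stretches of chromosome 2, were most like each other (r = 0.82). *Nkx2-1* was most like the noncoding *RP24-351J24.2* (r = 0.94) and *Lhx5* (r = 0.86), *Tbx3* most like *Cited1* (r = 0.81), *Lhx9* most like *Neurod1* (r = 0.89), and *Lhx1* most like *1500016L03Rik* (r = 0.98). These likenesses of *Foxb1* and *Six3* to overlapping antisense genes carry the limit on strand given above.

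Genotype and tamoxifen were compared within each population on UMIs summed per mouse, in 1 edgeR quasi-likelihood fit of the 4 groups. After a filter on low counts, 78 pairs of a member and a population were tested, covering 31 members and 13 populations. None of the 78 passed the test in any of 6 comparisons: *Esr1* cKO against wild-type over both treatments, under oil, and under tamoxifen, the effect of tamoxifen in wild-type and in mutant mice, and the difference between these effects. Over all genes and populations, 63889 pairs were tested, of which 0.0344%, 0.0047%, 0.0376%, 0.0%, 0.0391% and 0.0157% were called in that order. At an unadjusted p under 0.05, 4, 5, 2, 4, 2 and 4 of the 78 pairs were found, and DESeq2 and limma called 0 in each comparison. These are 5.13%, 6.41%, 2.56%, 5.13%, 2.56% and 5.13% of the members' pairs, against 3.61%, 4.998%, 3.35%, 3.23%, 3.76% and 5.05% of all pairs. The members' median log2 difference by genotype was 0.03 with a median SE of 0.24, so at this depth a change of a typical member had to be well above that SE to be detectable. In these sums over all neurons, fewer cells of a neuron type and less RNA per cell are not separated. Levels within neuronal clusters were not compared between the groups.

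*Nkx2-1*, whose regulatory sequences drive Cre in the mutant mice, was at 44.1, 31.7 and 32.8 CPM in neurons of wild-type mice given oil, and 40.5, 20.9, 18.8, 30.5 and 28.2 CPM in those given tamoxifen. In *Esr1* cKO mice it was at 31.9, 23.9, 38.7 and 21.1 CPM under oil and 38.6, 21.4, 30.004 and 25.4 CPM under tamoxifen. The groups overlapped, with a log2 difference of -0.07 (SE 0.19, adjusted p = 1) by genotype. In tanycytes *Nkx2-1* ranged from 75.7 to 235 CPM in the 8 wild-type and from 45.5 to 233 CPM in the 8 *Esr1* cKO mice, a log2 difference of -0.20 (SE 0.29, adjusted p = 1).

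The smallest unadjusted p by genotype belonged to *Tbx3* in neurons. It was at 42.4, 13.7 and 23.6 CPM in wild-type mice given oil and at 24.6, 13.3, 10.7, 22.5 and 23.5 CPM in wild-type mice given tamoxifen. In *Esr1* cKO mice it was at 43.3, 45.3, 34.4 and 16.3 CPM under oil, and at 58.2, 18.99, 35.1 and 57.4 CPM under tamoxifen. Most mutant values lay above most wild-type values but the groups overlapped. The log2 difference was 0.85 over both treatments (SE 0.28, unadjusted p = 0.00751, adjusted p = 1) and 1.23 under tamoxifen (SE 0.36, adjusted p = 1). *Nr2f2* in endothelial cells had a log2 difference of 0.51 by genotype (SE 0.21, adjusted p = 1) and 0.55 under tamoxifen (SE 0.26, adjusted p = 1), and *Nr2f2* in ciliated ependymal cells was at 147 to 185 CPM in *Esr1* cKO and 90.4 to 119 CPM in wild-type mice under tamoxifen (log2 difference 0.70, SE 0.29, adjusted p = 1).

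*Lhx1* in neurons was named in 3 comparisons that share the wild-type mice given oil. These mice had 124, 86.4 and 42.04 CPM, wild-type mice given tamoxifen had 42.5, 27.6, 51.0, 47.4 and 33.0 CPM, and *Esr1* cKO mice had 36.8, 67.9, 27.3 and 35.8 CPM under oil and 45.7, 28.5, 34.6 and 24.3 CPM under tamoxifen. Of the 16 values, 2 wild-type oil libraries were the highest and the third lay among the other groups. The log2 differences were -0.59 by genotype (SE 0.23), -0.98 by genotype under oil (SE 0.33) and -1.04 by tamoxifen in wild-type mice (SE 0.31), each with an adjusted p of 1. Without the 2 libraries that stood apart, 1 of which is a wild-type oil library, the difference by genotype under oil was -1.29 with an adjusted p of 0.177. *Foxb1* in neurons, with 162, 60.8 and 24.6 CPM in wild-type mice given oil and 4.76 to 54.5 CPM in those given tamoxifen, had a log2 difference of -1.79 by tamoxifen (SE 0.69, adjusted p = 1).

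*Sp9*, a zinc finger gene of the ganglionic eminences, was at 0 to 5.14 CPM in neurons of wild-type mice given oil and 5.998 to 13.1 CPM in *Esr1* cKO mice given oil, without overlap. The log2 difference under oil was 1.57 (SE 0.52, adjusted p = 0.999), from a gene with 133 neuronal UMIs, and the tamoxifen effects differed by -1.69 (SE 0.67, adjusted p = 0.933). *Six3* in oligodendrocyte precursors was at 61.8, 61.5 and 43.0 CPM in wild-type mice given oil and at 22.4 to 39.5 CPM in *Esr1* cKO mice given oil, and at 29.2 to 51.0 CPM and 34.2 to 70.3 CPM under tamoxifen. Its log2 differences were -0.85 by genotype under oil (SE 0.35, adjusted p = 0.963), 0.77 by tamoxifen in *Esr1* cKO mice (SE 0.33, adjusted p = 0.948) and 1.31 between the tamoxifen effects (SE 0.47, adjusted p = 0.954). *Nkx2-2* in astrocytes was at 75.4, 76.8 and 96.4 CPM in wild-type mice given oil, above the 35.9 to 54.3 CPM of those given tamoxifen, with a log2 difference of -0.75 (SE 0.21, unadjusted p = 0.00213, adjusted p = 1). In precursors the tamoxifen effects on *Nkx2-2* differed by 0.74 (SE 0.33, adjusted p = 0.954).

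The last named pairs were *Nr2f1* in precursors (43.9 to 93.5 CPM under oil and 95.8 to 113 CPM under tamoxifen in *Esr1* cKO mice, log2 difference 0.53, SE 0.25, adjusted p = 0.948) and *Lhx6* in neurons (9.80 to 17.4 CPM and 4.41 to 11.9 CPM in the same groups, log2 difference -0.92, SE 0.45, adjusted p = 1). Over all alternatives tried, the smallest adjusted p of a member was 0.0811, for the difference of the tamoxifen effects on *Meis2* in ciliated ependymal cells without a filter on low counts. The dissection day of each mouse is not in the labels. With the library numbers taken in fours as a block in its place, 0 members were called in each of the 6 comparisons.

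**Figure D5:**
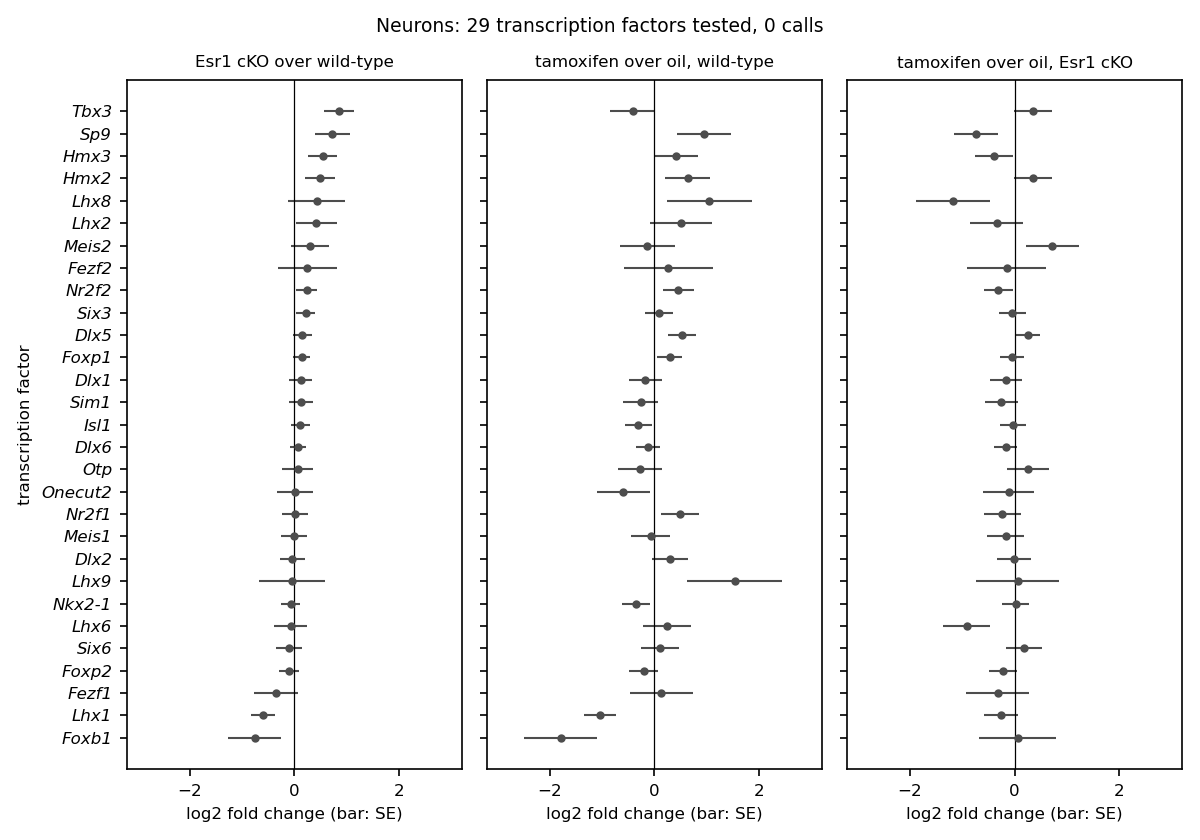
Log2 fold changes in neurons of the 29 members tested there, for *Esr1* cKO over wild-type mice and for tamoxifen over oil in each genotype, with a point at the edgeR estimate and a bar of 1 SE to each side. The points scatter around 0, with *Tbx3* at 0.85 by genotype and *Foxb1* at -1.79 by tamoxifen in wild-type mice, and none passed the test.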

How the data were processed

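The authors deposited raw UMI counts of each of the 16 libraries, with genes listed by symbol and 1 column per barcode. The submitters' processing notes name STAR 2.6, mm10 and Seurat 3.6.1, and the annotation and counting program are not given in the sources used here. As in the study's methods, barcodes were kept if they had over 200 genes, below 4000 genes and a mitochondrial share below 15%. They were clustered in Seurat 5.3.0 (R 4.3.3) on 2000 variable genes per group without the members (anchors over 30 dimensions, 20 principal components, resolutions 0.05 and 0.5), and neurons again on 500 (resolution 0.7). Scrublet (scanpy 1.11.5) marked 494 cells as doublets, which were removed only in an alternative.

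UMIs were summed per library and population of at least 10 cells and tested with edgeR 4.0.16 (quasi-likelihood, TMM, filterByExpr, Benjamini-Hochberg over all genes tested in a population, threshold 0.05). The labels do not say more of the replicates than 1 mouse per library. Levels of different genes are not compared, since a count at the 3' end has no length scale. Intervals cover counting error only. Code was tested on simulated data. Members and lists were chosen with earlier results of these data known.

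Values are given for members called higher at 50 CPM or more in a population, every member called between neuron classes, and, where none was called, the 3 of smallest unadjusted p per comparison. Per neuronal cluster, the member of largest ratio is named if its level is at least 100 CPM. Any other gene was named with its values in view. Results were recomputed with DESeq2 1.42.0 (size factors, Wald test), limma 3.58.1, no filter on low counts, each library left out, both libraries that stood apart left out, only cells of over 500 genes, a mitochondrial share under 5%, doublets removed, clustering with the members, other sorting rules for neurons, thinning to 500 UMIs, and, added after seeing the data, removal of shared barcodes. Gene positions came from GENCODE vM21. The levels of 1 neuronal cluster are not reported here.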

Additional observations from a re-analysis of the deposited data

Results flagged for a closer look

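In 5 of the 35 groups of mice tested, 1 mouse lay far from the others by Dixon's criterion, which chance meets in about 1 of 20 groups. Tested were the groups of 4 or 5 mice for members named by genotype or treatment, and the 8 pars tuberalis libraries for *Isl1* and *Tbx3*. The 3 wild-type mice given oil were too few to be tested. *Nr2f2* in endothelial cells was at 181.3 CPM in *Esr1* cKO oil replicate 1, against 135.6 to 141.3 CPM in the other 3 mice, and at 90.48 CPM in *Esr1* cKO tamoxifen replicate 4, against 159.8 to 165.9 CPM. In ciliated ependymal cells the same gene was at 222.3 CPM in *Esr1* cKO oil replicate 3, against 73.67 to 88.29 CPM. *Foxb1* in neurons was at 54.47 CPM in wild-type tamoxifen replicate 1, against 4.759 to 18.46 CPM in the other 4 mice. *Nr2f1* in oligodendrocyte precursors was at 61.46 CPM in wild-type tamoxifen replicate 2, against 100.9 to 112.3 CPM. None of these libraries is 1 of the 2 that stood apart as a whole.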

How the results depend on the processing

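Over 21 counts of members called, 547 alternatives were computed, and 538 stayed within 1.5 times the count reported. With the Wald test of DESeq2, 2 members were higher in ciliated ependymal cells in place of 4. In oligodendrocyte precursors 2 were higher in place of 1 with cells of more than 500 genes and with a mitochondrial share under 5%. With each library left out in turn, the members called higher were 5 to 6 in astrocytes, 3 to 5 in ciliated ependymal cells, 2 to 4 in endothelial cells (4 without wild-type oil replicate 1), 1 to 2 in precursors, 2 to 3 in mural cells, 2 to 3 in oligodendrocytes, 22 to 23 in neurons and 7 in tanycytes, and between neuron classes 11 to 12 were higher and 8 to 9 lower. Precursors had 2 without wild-type tamoxifen replicate 2, 3 or 4, wild-type oil replicate 3 or *Esr1* cKO oil replicate 4. No fitted log2 difference of a member named by rule changed sign under these alternatives, which did not cover *Meis1* in oligodendrocytes, where plain CPM and the fit differed in sign. Of 775 alternatives for the members named by population 10 lost the call, and of 561 for neuron classes 16 did, as given beside those genes. The cause was not tested. Thinning to 500 UMIs per cell moved 28 of 31 shares of cells outside their counting intervals.

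No member was called by genotype or tamoxifen under any alternative, with 0 in each fit without 1 library. Over all genes and populations these comparisons rested on few libraries. By genotype 6 pairs were higher and 16 lower, and 7 and 1 without the libraries that stood apart. By tamoxifen in *Esr1* cKO mice 1 was higher and 24 lower, and 3 and 2 without those libraries. Under tamoxifen 3 were higher and 21 lower by genotype, and 8 and 1 without them. Without *Esr1* cKO tamoxifen replicate 3 alone, 0 were lower in each of these 3 comparisons. The difference of the tamoxifen effects had 0 higher and 10 lower calls, and 4 and 96 without wild-type oil replicate 2. With the library numbers taken in fours as a block, a stand-in for the days of dissection, 1 pair was higher and 0 lower by genotype. Without a filter on low counts the difference of the tamoxifen effects had 23 higher and 160 lower. Between neuron classes 471 genes were higher and 588 lower, and 277 and 389 with a mitochondrial share under 5%. The block by library numbers is no pairing that the labels state. No paired analysis was possible because the labels give neither replicate numbers within a group nor the day of each mouse. Depth, at a median of 563 to 819 UMIs per cell, limits what a share of cells with a UMI can show, so the tests used sums over cells.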
